A study of Homo sapiens with 7 samples.

Results

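The HOX genes are the homeobox transcription factor genes of the 4 human HOX clusters. They were taken as the protein-coding RefSeq genes of GRCh38.p14 whose symbol is HOXA, HOXB, HOXC or HOXD followed by digits only, which gave 39 of 19974 protein-coding genes. HOXA holds 11 of them in 107 kb at chr7:27092993-27200091, and HOXB holds 10 in 200 kb at chr17:48528526-48728750. HOXC holds 9 in 117 kb at chr12:53938831-54056030, and HOXD holds 9 in 103 kb at chr2:176087487-176190907. Each cluster was taken from its lowest to its highest gene end, and the 100 kb on either side were taken as its flank. Clusters and flanks together held 35 of 42911 RUNX2 peaks and 23 of 63265 H3K27ac regions of KARPAS-45, and 15 of 21027 RUNX2 peaks and 33 of 53263 H3K27ac regions of PER-117.

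HOX proteins give cells their position along the body axis, and the genes of a cluster are arranged in the order of the regions in which they act, with low numbers anterior and high numbers posterior. In blood, HOX genes are active in stem and progenitor cells and are mostly shut off as cells mature. Trithorax complexes built around KMT2A keep HOX clusters active and Polycomb complexes keep them silent, and fusions of KMT2A in leukemia are known for holding HOXA genes on. RUNX2 is a DNA-binding factor of the Runt family, which partners with CBFB, and H3K27ac, the acetylation of lysine 27 of histone H3, marks active promoters and enhancers.

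The data were chromatin immunoprecipitation followed by sequencing of KARPAS-45 and PER-117, established human lines of T-cell acute lymphoblastic leukemia (T-ALL), with 1 library per line and antibody. KARPAS-45 carries a KMT2A rearrangement and was grown in 20% fetal bovine serum, whereas PER-117 was grown in 10%. RUNX2 was precipitated with antibody D1H7 and H3K27ac with ab4729. Read depth was unknown from the peak lists, and without replicates no difference could be tested, so all values describe these 4 lists. Where a list has no interval, none was called, and a mark on a few cells cannot be told apart from a weak mark on all of them.

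KARPAS-45 had the longer lists. Its RUNX2 peaks numbered 1.42 per 100 kb of genome, against 0.694 in PER-117, and its H3K27ac regions covered 5.5% of the genome, against 2.52% in PER-117. T-lineage markers (CD3D, CD3E, CD3G, CD2, CD7 and LCK) carried H3K27ac at a gene end at 6 of 6 genes in either line. Over all protein-coding genes the share was 61.0% in KARPAS-45 cells and 55.5% in PER-117 cells. B-lineage markers had it at 2 of 4 genes in either line, near that share, myeloid markers at 0 of 4 in KARPAS-45 cells and 1 of 4 in PER-117 cells (CD33), and erythroid markers at 0 of 3 in either line. Among 4 non-blood markers 1 carried it in either line.

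Most HOX genes had no RUNX2 peak and no H3K27ac region at an end. A gene was counted when an interval overlapped a window of 1 kb on either side of either end of its span, since the gene table gives no strand. RUNX2 lay at a gene end of 4 of 39 HOX genes in KARPAS-45, or 10.3% (Wilson 95% interval 4.06 to 23.6%), against 48.3% of all protein-coding genes in that line. In PER-117 it lay at 1 of 39, or 2.56% (0.454 to 13.2%), against 32.5% of all protein-coding genes. The HOX share was thus below the background in either line. The intervals cover counting error only, and neighbouring HOX genes share regions, so they are not independent.

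No HOX gene had RUNX2 at an end in both lines, where 29.2% of all protein-coding genes did; with 4 genes bound in KARPAS-45 cells and 1 in PER-117 cells, at most 1 could have been shared. The bound genes were HOXA13, HOXB5, HOXD13 and HOXD8 in KARPAS-45 and HOXB3 in PER-117. Counting peaks inside the span as well added HOXB6, HOXC12 and HOXD3 in KARPAS-45 and HOXB9 in PER-117. The totals were then 7 of 39 in KARPAS-45, where 62.8% of all protein-coding genes were counted, and 2 of 39 in PER-117, where 45.7% were.

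H3K27ac lay at a gene end of 9 of 39 HOX genes in either line, or 23.1% (Wilson 95% interval 12.6 to 38.3%), against 61.0% of all protein-coding genes in KARPAS-45 cells and 55.5% in PER-117 cells. Acetylated in both lines were HOXC4, HOXC5, HOXC6 and HOXD13, or 4 of 39, against 51.9% of all protein-coding genes. KARPAS-45 alone had it at HOXA13, HOXD12, HOXD8, HOXD3 and HOXD1, and the genes that PER-117 alone had included HOXB2, HOXB3, HOXB4 and HOXB7. The genes that set the lines apart came mainly from HOXD in KARPAS-45 and from HOXB in PER-117. HOXA3 held a region within its span in PER-117, which brought that line to 10 of 39 genes, against 63.3% of all protein-coding genes, while KARPAS-45 stayed at 9 of 39, against 68.2%.

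Neither mark was called in either line, at an end or in the span, for 20 of the 39 genes. The same count was not made over all protein-coding genes, so it has no background beside it. These were HOXA2, HOXA4, HOXA5, HOXA6, HOXA7, HOXA9, HOXA10 and HOXA11, then HOXB1, HOXB8 and HOXB13, then HOXC8, HOXC9, HOXC10, HOXC11 and HOXC13, and HOXD4, HOXD9, HOXD10 and HOXD11. HOXA9 and HOXA10, the HOX genes best known as KMT2A-fusion targets, are among them. HOXA9 missed the 1 kb window narrowly, with an H3K27ac region 1016 bp away in KARPAS-45 and 1026 bp away in PER-117. HOXB8 missed it as narrowly in PER-117, with a region 1028 bp away. HOXA7 and HOXA6 lay 2273 and 2459 bp from a PER-117 region, so a window of 2.5 kb would count them. The KARPAS-45 counts moved with the settings. A window of 2.5 kb gave 11 RUNX2-bound genes, and keeping only its widest H3K27ac regions, up to the length that the PER-117 list covers, left HOXD8 and HOXD3 as the 2 acetylated genes.

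**Figure D1:**
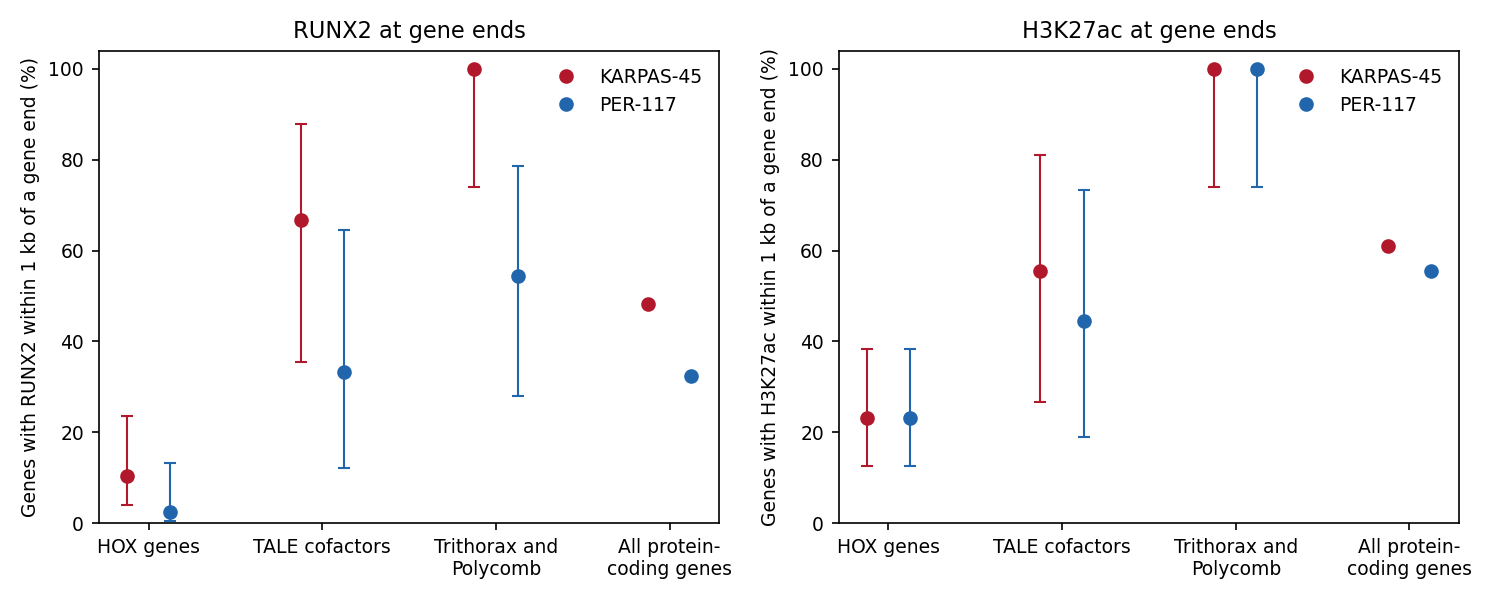
Percent of genes with a RUNX2 peak (left) or an H3K27ac region (right) within 1 kb of a gene end, for the 39 HOX genes, 9 TALE cofactor genes, 11 trithorax and Polycomb genes and all protein-coding genes, with KARPAS-45 left of PER-117 in each pair and Wilson 95% intervals on the lists. The HOX genes lie at 10.3% and 2.56% for RUNX2 in KARPAS-45 and PER-117 and at 23.1% for H3K27ac in either line, all below the share of all protein-coding genes.

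In KARPAS-45 the HOXD cluster had the highest H3K27ac coverage of the 4, and in PER-117 little of it was covered. H3K27ac regions covered 29.2 kb or 28.2% of the cluster in KARPAS-45, in 8 regions, and 2.24 kb or 2.17% in PER-117, in 3 regions. In the flank they covered 3.95% in KARPAS-45 compared with 1.41% in PER-117. In KARPAS-45 the acetylated bases were uneven along the cluster, with 11.3% of the stretch of posterior genes from HOXD13 to HOXD9, 42.2% of that from HOXD8 to HOXD4 and 37.3% of that from HOXD3 to HOXD1. The same stretches had 5.1%, 1.41% and 0% in PER-117. HOXD4, HOXD9, HOXD10 and HOXD11 themselves had no region at an end or in the span in either line.

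The widest acetylated region of KARPAS-45 in any cluster ran 11809 bp over the upper end of HOXD3, part of HAGLR and all of HAGLROS, at chr2:176168839-176180647, with a fold enrichment of 2.88. Fold enrichment is the authors' value for each interval and is read only within its own list. The next widest, 7500 bp at chr2:176130671-176138170, covered 2025 bp of HOXD8 and reached over HOXD-AS2, with a fold of 12.4, higher than 98.0% of the regions of that list. Both are wide for the list, whose median width is 1270 bp. HOXD8 belongs to the middle group of the cluster, and HOXD3 to the anterior group.

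RUNX2 peaks were called inside HOXD in KARPAS-45 and nowhere inside it in PER-117. KARPAS-45 had 9 peaks inside, or 8.7 per 100 kb, against 8 in the flank, or 4.0 per 100 kb. PER-117 had 0 inside and 2 in the flank. The inside excess in KARPAS-45 was 4.7 peaks per 100 kb, with an interval of −1.41 to 12.8 from counting error alone, so it was not larger than that error. With the KARPAS-45 list reduced to its 21027 strongest peaks, the length of the PER-117 list, the excess was 1.33, from 4.83 inside and 3.5 in the flank. All 9 peak summits inside HOXD lay in H3K27ac regions of KARPAS-45, where 65.2% of all RUNX2 summits of that line did.

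The strongest of these peaks, chr2:176178223-176178741, had a fold of 26.6, higher than 96.5% of the RUNX2 peaks of KARPAS-45. It lay over HAGLROS, a short transcript within HAGLR, the long non-coding RNA between HOXD3 and HOXD1. HAGLR held 2 more peaks, chr2:176174921-176175343 with a fold of 15.8 and chr2:176174436-176174668 with 6.08. All 3 lay in the acetylated region of 11809 bp.

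The other 6 peaks of the cluster lay near HOXD13, HOXD8 and HOXD3. Between HOXD13, a limb and digit gene, and HOXD12, also a limb gene, peaks at chr2:176096607-176097119 and chr2:176097629-176097812 had folds of 9.9 and 4.13. HOXD8 had a peak of 6.97 within its span, 241 bp from its nearer end, and upstream of HOXD-AS2 lay chr2:176137236-176137509 with 10.9. A peak at chr2:176140503-176140862 had 6.41, and HOXD3 held a peak of 5.23 in its span. The folds inside HOXD thus lay between 4.13 and 26.6 with a median of 6.97, near the list's median of 6.36.

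The stretch between HOXD13 and HOXD12 was acetylated in both lines, in KARPAS-45 at chr2:176095423-176098317 with a fold of 3.33 and in PER-117 at chr2:176096291-176097943 with 6.34. Both RUNX2 peaks of KARPAS-45 there had their summits inside the PER-117 region, where PER-117 had no RUNX2 peak. A further shared region, of 2435 bp in KARPAS-45 and 332 bp in PER-117, overlapped LOC401021 in KARPAS-45 and lay 216 bp from it in PER-117. In the flank, LNPK, which encodes an endoplasmic reticulum protein, and MTX2, which encodes a mitochondrial import protein, carried RUNX2 and H3K27ac at an end in either line. RUNX2 folds at LNPK were 9.45 in KARPAS-45 cells and 9.38 in PER-117 cells, and at MTX2 they were 11.6 in KARPAS-45 cells and 13.1 in PER-117 cells. The homeobox gene EVX2, which adjoins HOXD13, held 1 RUNX2 peak of fold 5.6 and 1 H3K27ac region of fold 2.05 in its span in KARPAS-45, and neither in PER-117. The strongest KARPAS-45 peak of the flank, chr2:176253043-176253364, had a fold of 12.8 and no acetylation.

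The promoter windows that RUNX2 peaks of KARPAS-45 touched in HOXD are shown because they belong to the strongest and the third strongest peak of the cluster. Each is the RefSeq window of GRCh38.p14 from 250 bases before to 50 after a start, on the minus strand, at chr2:176178080-176178379 for HAGLR and at chr2:176137049-176137348 for HOXD-AS2. The HAGLR start used lies within the gene's span of chr2:176173189-176188958, not at its upper end.
HAGLR: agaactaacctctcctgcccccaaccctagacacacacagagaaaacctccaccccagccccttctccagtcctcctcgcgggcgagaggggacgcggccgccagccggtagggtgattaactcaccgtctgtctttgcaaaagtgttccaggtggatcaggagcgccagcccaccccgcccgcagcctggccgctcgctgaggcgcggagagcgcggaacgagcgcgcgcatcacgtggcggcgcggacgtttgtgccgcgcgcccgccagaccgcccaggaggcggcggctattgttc
HOXD-AS2: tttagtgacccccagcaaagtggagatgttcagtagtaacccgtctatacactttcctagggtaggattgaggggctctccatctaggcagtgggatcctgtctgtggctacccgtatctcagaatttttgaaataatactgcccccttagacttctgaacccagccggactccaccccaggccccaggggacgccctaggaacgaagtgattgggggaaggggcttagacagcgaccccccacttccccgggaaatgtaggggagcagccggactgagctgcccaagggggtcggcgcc
Both are all in lower case because neither holds TGTGGT or TGCGGT, the RUNX motif letters searched on both strands, which is a statement about these 300 bases only. Over all 35116 promoter windows, 13.1% hold TGTGGT, 7.29% hold TGCGGT and 19.6% hold either. Both summits lie upstream of the first base shown.

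**Figure D2:**
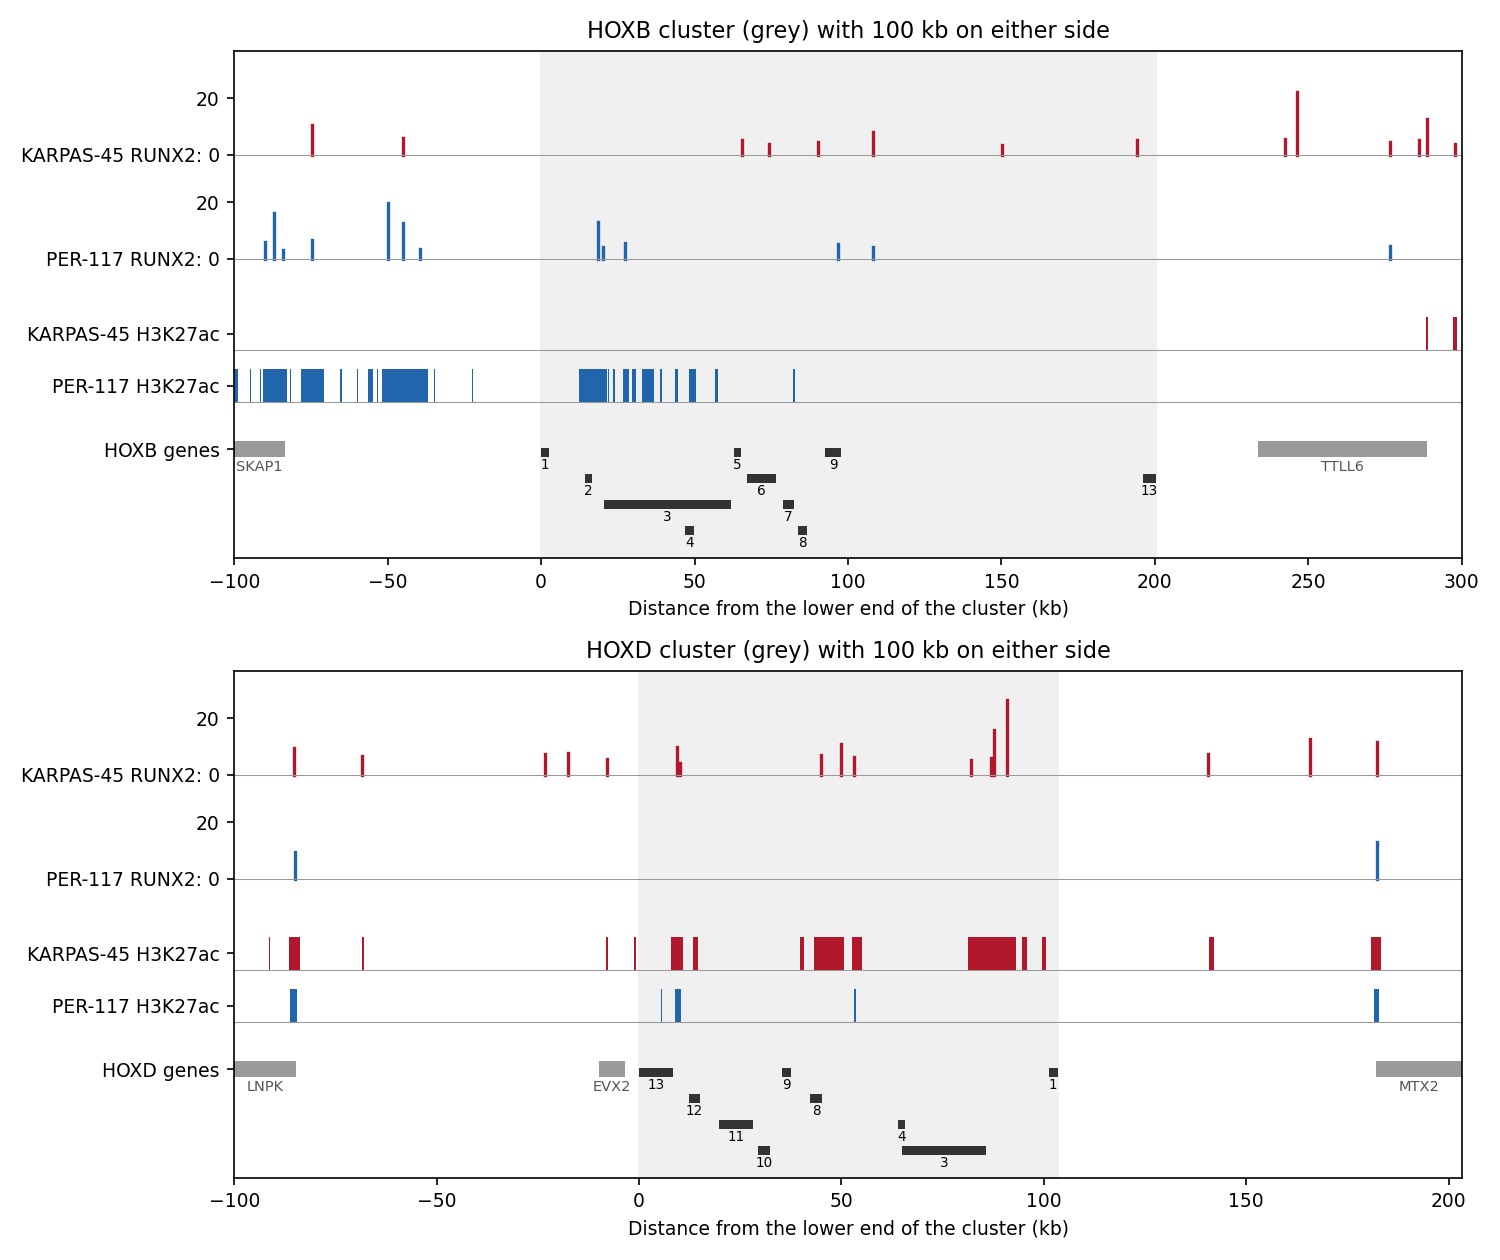
RUNX2 peaks (vertical lines, height is the authors' fold enrichment) and H3K27ac regions (boxes) of KARPAS-45 above PER-117 over the HOXB and HOXD clusters, against distance in kb from the cluster's lower end, with HOX genes by number in dark bars and neighbouring genes in grey. HOXB has 0 H3K27ac regions inside in KARPAS-45 compared with 11 in PER-117, and HOXD has 8 in KARPAS-45 cells and 3 in PER-117 cells.

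HOXB had no H3K27ac region in KARPAS-45 and was acetylated at its anterior genes in PER-117. The longer KARPAS-45 list had none in the 200 kb of the cluster. PER-117 had 11 regions that covered 23.5 kb or 11.7% of it. Of the stretch from HOXB1 to HOXB4, 20.9 kb or 41.9% was covered in PER-117, while the stretch from HOXB5 to HOXB9 was covered to 2.52% and the gap between HOXB9 and HOXB13 to 0%.

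The widest, 8970 bp at chr17:48540892-48549861, covered HOXB2, a hindbrain patterning gene, and the lower end of HOXB3, and it reached over most of HOXB-AS1. Its fold of 15.4 was higher than 99.9% of the H3K27ac regions of PER-117. A region of 2459 bp at chr17:48576548-48579006 had a fold of 9.01 at HOXB4, known for expanding blood stem cells when overexpressed. A region of 886 bp at HOXB7 had a fold of 3.96. The remaining 8 regions lay within HOXB3, with folds between 2.43 and 4.9.

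RUNX2 peaks occurred inside HOXB in either line, mostly at different places. In KARPAS-45 the 6 peaks in HOXB had folds between 3.65 and 8.01, and no summit was acetylated in either line. They lay 141 bp from HOXB5 (5.41), in HOXB6 and HOXB-AS3 (3.8), 2044 bp from HOXB9 (4.64), in LINC03057 (8.01), in LINC02086 (3.65) and at PRAC1 and PRAC2 (5.2). Their median of 4.92 was below the list's median of 6.36. None lay between HOXB1 and HOXB4, where PER-117 had 3.

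In PER-117 the 5 peaks had folds of 13.0, 4.34, 5.61, 5.36 and 4.3. The strongest, chr17:48546989-48547346, lay in HOXB-AS1 within the 8970 bp region, 1524 bp from HOXB3. The next along the chromosome, chr17:48548549-48548740, lay 130 bp from HOXB3, which put that gene among those bound at an end, and chr17:48555869-48556136 lay within HOXB3. Their 3 summits were acetylated, and those of the peaks in HOXB9 and in LINC03057 were not. Genome-wide, 75.6% of RUNX2 summits of PER-117 were acetylated.

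The peak in LINC03057 was the only RUNX2 peak inside any of the 4 clusters that overlapped a peak of the other line. It spanned chr17:48636468-48636705 in KARPAS-45, with a fold of 8.01, and chr17:48636549-48636797 in PER-117, with 4.3. It was acetylated in neither line.

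Promoter windows with a RUNX motif near a summit are shown for each line in HOXB, again from RefSeq with GRCh38.p14. The PRAC1 window holds the 250 bases before the start on the minus strand, chr17:48722519-48722768, and met the KARPAS-45 peak of fold 5.2. The HOXB-AS2 window holds 300 bases on the plus strand, chr17:48555907-48556206, and met the PER-117 peak of fold 5.61.
PRAC1: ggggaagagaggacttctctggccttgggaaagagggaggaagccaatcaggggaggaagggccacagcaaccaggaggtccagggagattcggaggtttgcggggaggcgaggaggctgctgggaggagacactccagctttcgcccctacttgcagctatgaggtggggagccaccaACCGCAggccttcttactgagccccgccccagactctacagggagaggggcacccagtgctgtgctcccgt
HOXB-AS2: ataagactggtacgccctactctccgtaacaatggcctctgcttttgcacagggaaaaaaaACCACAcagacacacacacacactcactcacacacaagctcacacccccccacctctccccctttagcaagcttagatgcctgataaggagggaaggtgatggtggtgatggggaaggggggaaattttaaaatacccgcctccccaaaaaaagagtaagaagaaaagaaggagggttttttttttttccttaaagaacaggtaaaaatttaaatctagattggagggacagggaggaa
Capitals mark the match, which reads as the reverse complement on these strands. It is TGCGGT in PRAC1, centred 25 bp from the summit, and TGTGGT in HOXB-AS2, centred 19 bp from the summit. Of the 9 promoter windows in clusters and flanks that met a RUNX2 peak of either line, 3 held either motif, against 19.6% of all windows. That share is for windows of 300 bases, whereas those of coding genes here were cut to 250. The LNPK windows among the 9 also overlap each other. Whether the motif is more frequent at these peaks was not tested. The third was that of TTLL6, where the match lay 354 bp from the summit.

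The flanks of HOXB differed by side. On the SKAP1 side, KARPAS-45 had 0 H3K27ac regions and 2 RUNX2 peaks, the stronger at chr17:48453666-48453947 with a fold of 10.7, and PER-117 had 13 regions that covered 36.9% of the 100 kb and 7 peaks. SKAP1 encodes an adaptor of T-cell receptor signalling. The strongest PER-117 peaks there had folds of 19.8 at chr17:48478221-48478748, 16.4 at chr17:48441219-48441687 within SKAP1 and 12.6 at chr17:48483187-48483888. All 7 had acetylated summits, and both KARPAS-45 peaks overlapped PER-117 peaks.

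On the TTLL6 side the order was the opposite, with 2 regions covering 1.81% and 6 peaks in KARPAS-45, against 0 regions and 1 peak in PER-117. TTLL6 encodes a tubulin polyglutamylase. The strongest KARPAS-45 peak, chr17:48774530-48775024 in TTLL6, had a fold of 22.4 and no acetylation, and a peak of 12.6 lay at the upper end of the gene in an acetylated region. The PER-117 peak there had a fold of 4.53.

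HOXB as a whole had less H3K27ac inside than in the flank, with 0% inside and 0.907% in the flank in KARPAS-45, and 11.7% inside and 18.4% in the flank in PER-117. Ending the cluster at HOXB9, without the outlying HOXB13, turned the direction in PER-117, to 24.0% inside and 18.4% in the flank. RUNX2 density changed sign with the same choice, to an inside excess of 0.566 peaks per 100 kb in KARPAS-45 cells and 0.0886 in PER-117 cells. The span with HOXB13 gave −1.0 for KARPAS-45, with a counting-error interval of −5.32 to 3.19. It gave −1.5 for PER-117, with −5.73 to 2.53. These RUNX2 differences were thus not larger than counting error.

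HOXA was sparse in either line. H3K27ac covered 0.801% of the cluster in KARPAS-45, in 2 regions, and 2.43% in PER-117, in 3 regions. The flank had 0.232% in KARPAS-45, all of it the outer part of the region at HOXA13, and 0% in PER-117. The longest stretch of the cluster without a region was 67.7 kb in KARPAS-45 and 53.6 kb in PER-117. EVX1, the neighbouring homeobox gene in the flank, had neither mark in either line.

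The lines shared a region between HOXA7 and HOXA9, at chr7:27160653-27161422 in KARPAS-45 with a fold of 1.85 and at chr7:27160499-27161412 in PER-117 with 5.37. It lay 1016 bp from HOXA9 in KARPAS-45 and 1026 bp in PER-117, so that HOXA9 fell just outside the 1 kb rule. PER-117 also had a region in HOXA3, which is needed for the thymus to form in mice, with a fold of 3.93. KARPAS-45 had a second region at the upper end of HOXA13, the most posterior gene, with a fold of 1.2 that was higher than 5.61% of its list.

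RUNX2 was called at 2 sites in HOXA in KARPAS-45 and at none in PER-117. A peak at chr7:27187702-27187982 lay in HOXA11-AS with a fold of 11.5, and a peak at chr7:27199626-27199990 overlapped HOXA13 with 11.2. Both folds were higher than most of the list, above 79.4% and 78.6% of its peaks. Neither summit was acetylated in either line, and the acetylated region at HOXA13 began just beyond the peak. No RUNX2 peak lay in the HOXA flank in either line.

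HOXC was acetylated in both lines at the shared lower end of HOXC4, HOXC5 and HOXC6, whose spans in the gene table begin together, so these 3 genes stand for 1 region. The region was chr12:54017629-54019015 in KARPAS-45, with a fold of 1.3, and chr12:54017015-54018916 in PER-117, with 8.01. Within their lists the first was higher than 12.2% of regions and the second than 93.3%. All 4 KARPAS-45 regions in HOXC and its flank had a −log10 q between 0.775 and 1.27, and none remained when 2 or more was required.

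KARPAS-45 further had a region in HOXC-AS2 and 2 in the upper flank, the wider of 5050 bp, so coverage was 2.13% inside against 2.72% in the flank. PER-117 had no other region, with 1.62% inside against 0% in the flank. RUNX2 was called in KARPAS-45 in HOXC12, at chr12:53956627-53956901 with a fold of 12.8, and between HOXC11 and HOXC10, at chr12:53980708-53980942 with 6.56. Neither was acetylated, and PER-117 had no RUNX2 peak in HOXC. HOTAIR, the long non-coding RNA of this cluster, had neither mark in either line.

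**Figure D3:**
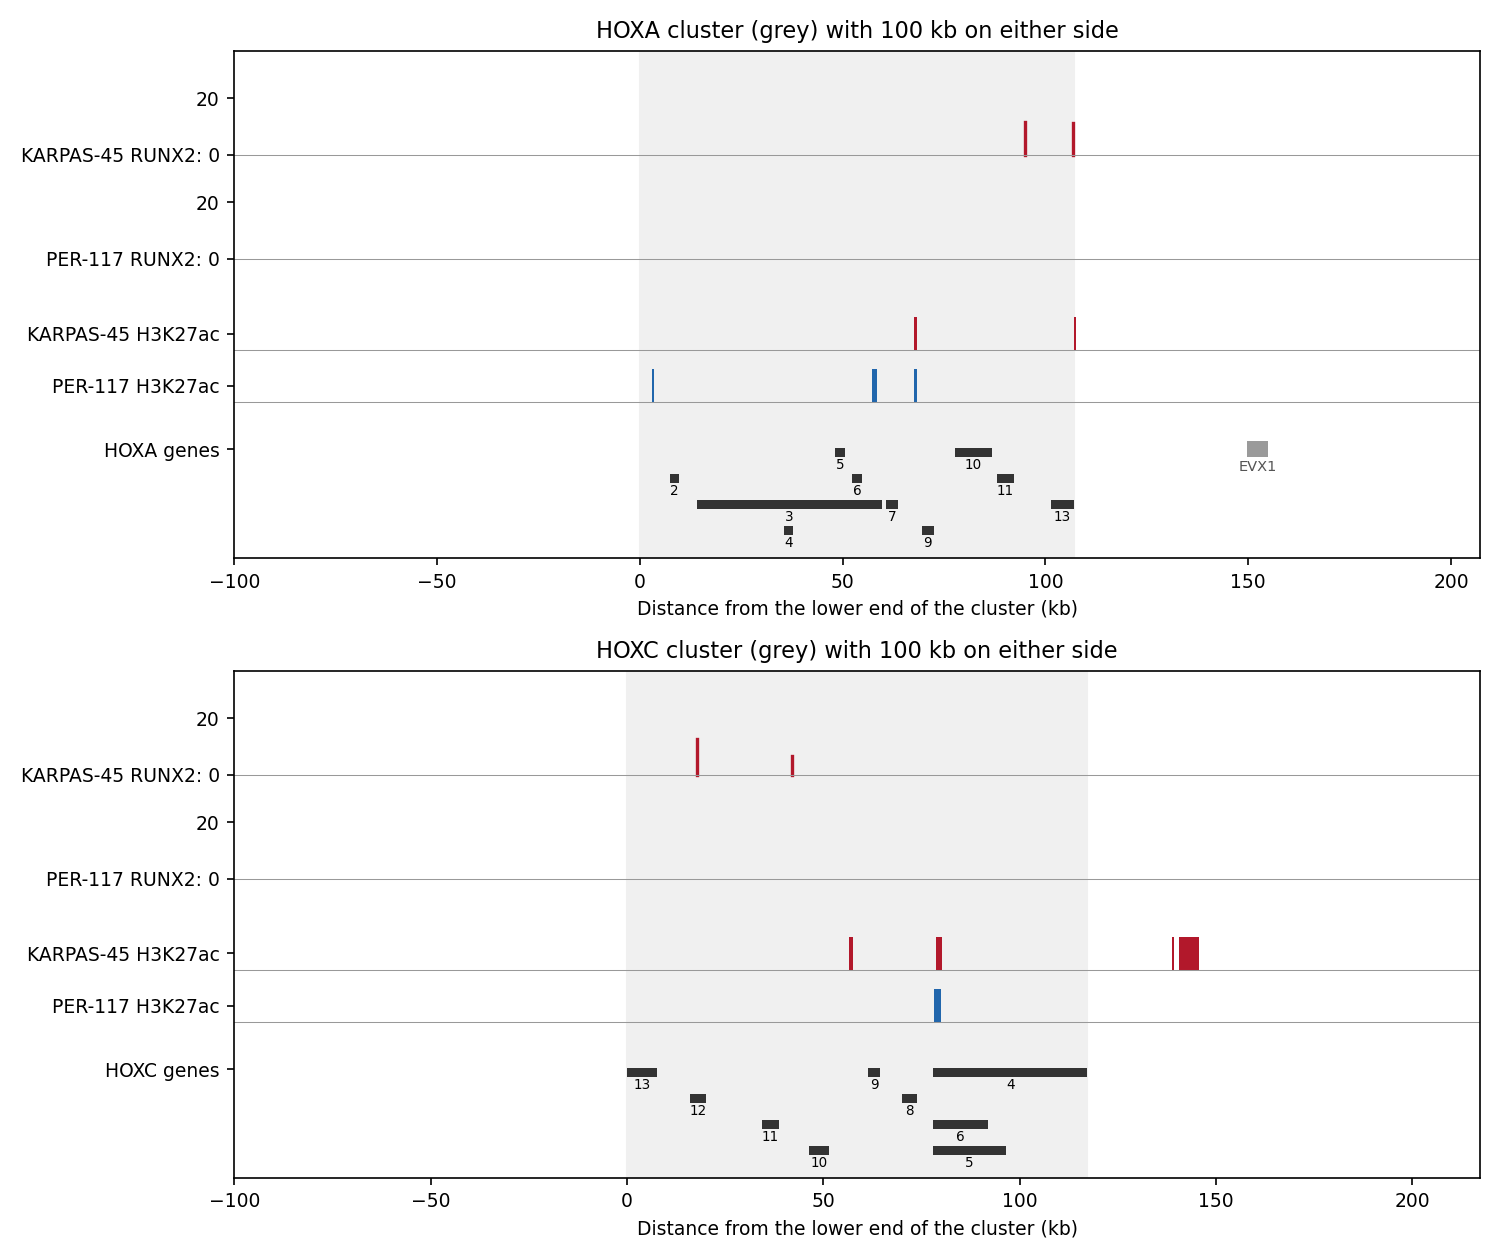
RUNX2 peaks (vertical lines, height is the authors' fold enrichment) and H3K27ac regions (boxes) of KARPAS-45 above PER-117 over the HOXA and HOXC clusters, against distance in kb from the cluster's lower end, with the HOX genes reported here by number in dark bars and the neighbouring gene EVX1 in grey. Each cluster has 2 RUNX2 peaks in KARPAS-45 compared with 0 in PER-117, and the lines share 1 H3K27ac region in each.

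Over the 4 clusters, KARPAS-45 had 19 RUNX2 peaks inside and 16 in the flank, or 3.6 and 2.0 per 100 kb. PER-117 had 5 inside and 10 in the flank, or 0.947 and 1.25 per 100 kb. Genome-wide, RUNX2 peaks numbered 1.42 per 100 kb in KARPAS-45 cells and 0.694 in PER-117 cells. The KARPAS-45 density inside was above its genome value, with a counting-error interval of 2.17 to 5.62. Among the single clusters, the KARPAS-45 interval lay above that value only in HOXD, at 3.98 to 16.5. In PER-117 the interval inside, 0.308 to 2.21, held the genome value. The difference between inside and flank was 1.6 peaks per 100 kb in KARPAS-45, with an interval of −0.301 to 3.79, and −0.303 in PER-117, with an interval of −1.53 to 1.12. Neither difference was larger than counting error, and with a flank of 50 kb the PER-117 difference turned to 0.197. At equal list length the KARPAS-45 difference was 0.644, from 1.89 inside and 1.25 in the flank.

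H3K27ac covered 6.17% of the clusters and 1.95% of the flanks in KARPAS-45, and 5.72% and 4.96% in PER-117. The KARPAS-45 coverage came mainly from HOXD, which gave 29.2 of 32.6 kb, and the PER-117 coverage from HOXB, which gave 23.5 of 30.2 kb. Genome-wide coverage was 5.5% in KARPAS-45 cells and 2.52% in PER-117 cells, so the clusters as a whole were near the genome in KARPAS-45 and above it in PER-117. Apart from HOXD in KARPAS-45 and HOXB in PER-117, each single cluster was below the genome value of its line. With a flank of 200 kb the inside excess of KARPAS-45 was 0.771 percentage points, in place of 4.22.

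**Figure D4:**
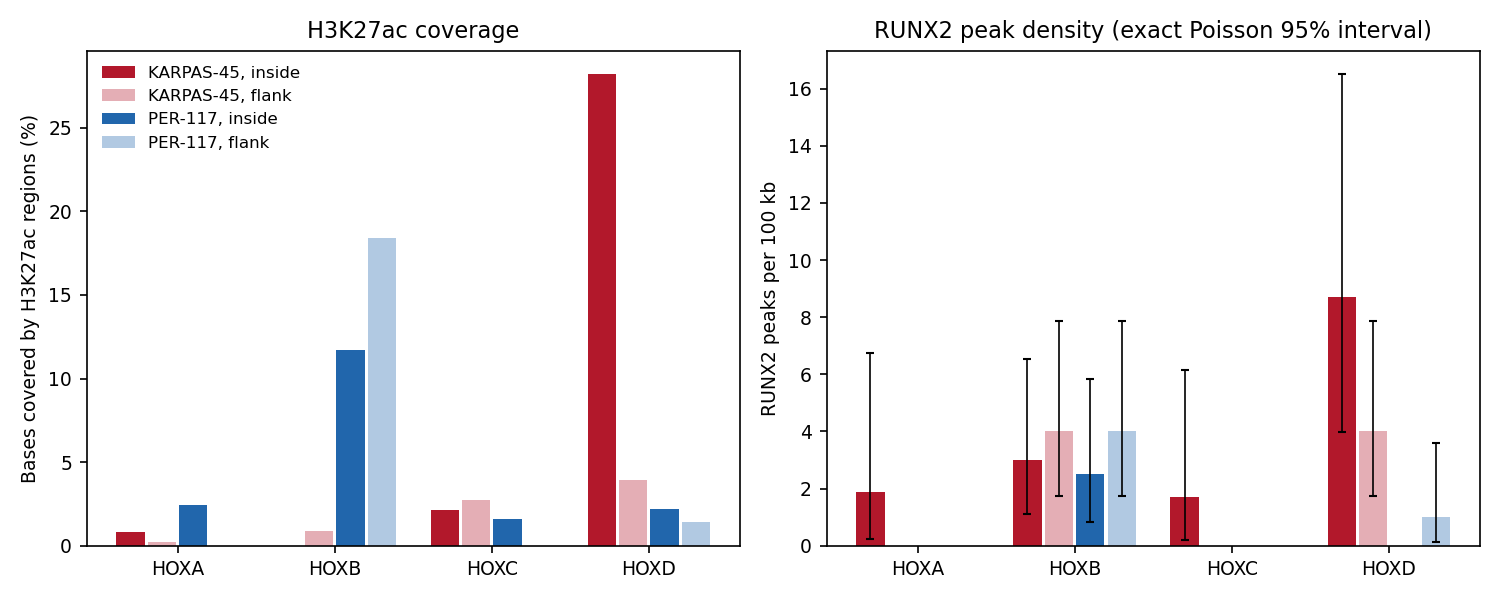
Percent of bases covered by H3K27ac regions (left) and RUNX2 peaks per 100 kb (right) inside each cluster and in its flank, for KARPAS-45 and PER-117, with exact Poisson 95% intervals on the peak densities where peaks were called. HOXD stands at 28.2% in KARPAS-45 cells and 2.17% in PER-117 cells, and HOXB at 0% in KARPAS-45 compared with 11.7% in PER-117.

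The RUNX2 peaks inside the clusters were rarely acetylated outside HOXD in KARPAS-45. There 9 of 19 summits inside and 5 of 16 in the flank lay in H3K27ac regions, against 65.2% of all peaks of the line, and all 9 were in HOXD. In PER-117 3 of 5 inside and 9 of 10 in the flank did, against 75.6%. Few RUNX2 peaks inside the clusters were shared by the lines, while in the flank the KARPAS-45 count stood near the share of its list. Of the KARPAS-45 peaks 1 of 19 inside and 5 of 16 in the flank overlapped a PER-117 peak, against 31.2% of all, and of the PER-117 peaks 1 of 5 inside and 5 of 10 in the flank overlapped a KARPAS-45 peak, against 63.6% of all. H3K27ac regions inside were shared at 4 of 12 in KARPAS-45, near the 35.3% of its list, and at 4 of 18 in PER-117, against 58.2%.

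RUNX2 peaks of one line were also set against the H3K27ac regions of the other. In KARPAS-45, 7 of the 35 summits in clusters and flanks lay in H3K27ac regions of PER-117, against 42.2% of all its summits. They were 3 inside HOXD, 2 at LNPK and MTX2, and 2 on the SKAP1 side of HOXB that KARPAS-45 itself did not have acetylated. In PER-117, 2 of 15 summits lay in regions of KARPAS-45, at LNPK and MTX2, against 62.5% of all its summits.

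**Figure D5:**
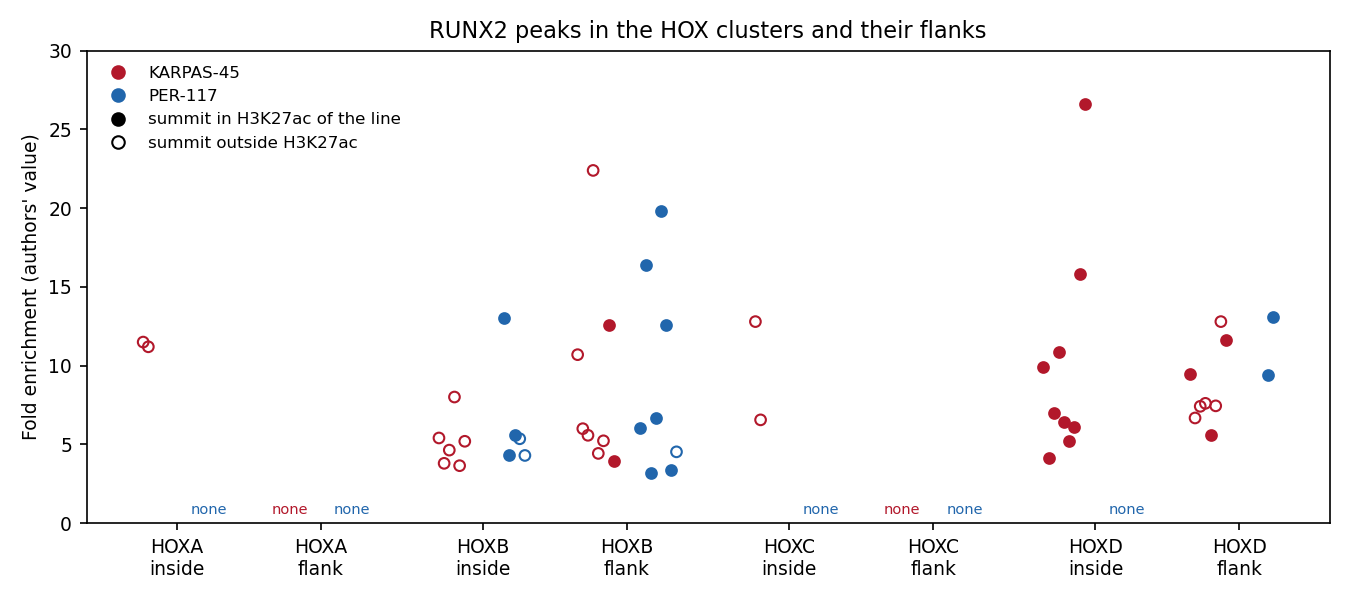
Authors' fold enrichment of each RUNX2 peak inside each cluster and in its flank, KARPAS-45 left of PER-117, with filled points where the summit lies in an H3K27ac region of the same line. The 9 KARPAS-45 peaks inside HOXD are all filled and reach 26.6, while the 6 inside HOXB are all open and reach 8.01.

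Of the 24 long non-coding RNA genes in the clusters, H3K27ac overlapped 7 in KARPAS-45 cells and 5 in PER-117 cells, and RUNX2 overlapped 7 in KARPAS-45 cells and 2 in PER-117 cells. Over all 18177 long non-coding RNA genes, H3K27ac overlapped 30.4% in KARPAS-45 cells and 25.1% in PER-117 cells, and RUNX2 overlapped 23.7% in KARPAS-45 cells and 14.2% in PER-117 cells, so these counts stood near the genome. In KARPAS-45 the acetylated genes were HOXC-AS2, LOC124902939, LOC100129455, HOXD-AS2, LOC401021, HAGLR and HAGLROS. In PER-117 they included HOXA-AS3, HOXB-AS1, HOXB-AS2 and LOC124902939. RUNX2 lay in HOXA11-AS, HOXB-AS3, LINC03057, LINC02086, LOC401021, HAGLR and HAGLROS in KARPAS-45, and in HOXB-AS1 and LINC03057 in PER-117. Among the RUNX2-bound ones, only LINC03057 was bound in both lines, 1 of 24, against 11.4% of all long non-coding RNA genes.

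The clusters also hold 8 miRNA genes, and no interval of any list overlapped them. The share over all miRNA genes was not counted, so whether this differs from other miRNA genes is unknown. Sequences are shown for families that sit among the HOX genes of several clusters, with mature RefSeq sequences of GRCh38.p14 and the seed, bases 2 to 8, in capitals.
hsa-miR-10a-5p: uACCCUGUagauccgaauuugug
hsa-miR-196a-5p: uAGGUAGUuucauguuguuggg
hsa-miR-196b-5p: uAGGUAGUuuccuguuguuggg
MIR196A1 in HOXB and MIR196A2 in HOXC give the same mature sequence, which shares its seed AGGUAGU with miR-196b of HOXA. The miR-196 family is known for targeting HOX transcripts such as HOXB8. MIR10A in HOXB lay 236875 bp from the nearest H3K27ac region of KARPAS-45 and 832 bp from the nearest of PER-117. MIR10B in HOXD lay 7791 bp from the nearest region of KARPAS-45 and 9365 bp from that of PER-117.

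The TALE homeobox proteins of the MEIS, PBX and PKNOX families bind DNA together with HOX proteins, and their genes lie outside the clusters. RUNX2 lay at a gene end of 6 of 9 in KARPAS-45 compared with 3 of 9 in PER-117, and H3K27ac at 5 of 9 in KARPAS-45 cells and 4 of 9 in PER-117 cells. Of all protein-coding genes, 48.3% had RUNX2 in KARPAS-45 compared with 32.5% in PER-117, and 61.0% had H3K27ac in KARPAS-45 compared with 55.5% in PER-117, and each of these shares lay within the Wilson 95% interval of the 9 genes. RUNX2 was called in both lines at PBX3, with folds of 6.0 in KARPAS-45 cells and 4.54 in PER-117 cells, and at PKNOX1, with 7.73 in KARPAS-45 compared with 6.51 in PER-117. MEIS1, the usual partner of HOXA9 in leukemia, was bound (6.62) and acetylated (2.2) at an end in KARPAS-45 and not in PER-117, and PBX4 and PKNOX2 had RUNX2 at an end in KARPAS-45 alone, although PKNOX2 held 1 peak within its span in PER-117. MEIS2 had neither at an end in KARPAS-45 and was bound (10.7) and acetylated (9.67) in PER-117. The MEIS gene with both marks at an end was thus MEIS1 in KARPAS-45 and MEIS2 in PER-117.

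The trithorax and Polycomb genes, which maintain HOX states, carried H3K27ac at a gene end at 11 of 11 in either line. RUNX2 lay at 11 of 11 in KARPAS-45 cells and 6 of 11 in PER-117 cells. All were above those same shares of protein-coding genes. For 11 of 11 the Wilson interval, 74.1 to 100%, also lay above them. For 6 of 11 it was 28.0 to 78.7%, which held the PER-117 share of 32.5%. RUNX2 was called in both lines at DOT1L, EED, EZH2, MEN1, RING1 and RNF2. It was called in KARPAS-45 and not in PER-117 at BMI1, KMT2A, SUZ12 and WDR5, with a fold of 33.6 at KMT2A. Of 6 ParaHOX and CDX genes, homeobox genes related to HOX outside the clusters, KARPAS-45 had RUNX2 at an end of GSX2 and H3K27ac at an end of PDX1, and PER-117 had neither mark at an end of any of the 6. With 1 of 6 or fewer, each count was below those shares. For 1 of 6, the KARPAS-45 count for either mark, the Wilson interval was 3.01 to 56.4%. It held the RUNX2 share of 48.3% and lay below the H3K27ac share of 61.0%. For 0 of 6, the PER-117 count for either mark, it was 0.0 to 39.0%. This held the RUNX2 share of 32.5% and lay below the H3K27ac share of 55.5%. Whether RUNX2 is rarer at these 6 genes thus cannot be told from so few.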

How the data were processed

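RUNX2 and H3K27ac peak lists of 4 ChIP libraries were used; the 3 input samples were not analysed here. Chromatin was precipitated with 10 ug of antibody, per the labels' protocols. The build hg38 and the tools MACS2 and STAR 2.4.2a are named in the submitters' processing notes; the settings of each were not given in the sources used here. Every line deposited by the authors has 10 columns, with a display score, the −log10 p and −log10 q of the interval and its fold enrichment, which is a linear ratio. Column 10 of the deposited RUNX2 lists is a summit, whereas in every line of the H3K27ac lists it reads 100 and was left aside. The lowest deposited −log10 q was 0.431 in the KARPAS-45 and 1.01 in the PER-117 H3K27ac list, with 1.31 and 1.3 in their RUNX2 lists.

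RUNX2 lines of the same peak were merged, keeping the summit with the highest fold. With the restriction to chromosomes 1 to 22 and X this left 42911 intervals of 46275 lines for KARPAS-45 and 21027 of 23043 for PER-117. The gene table was RefSeq's for GRCh38.p14, without strand or exons, so exons and introns were not resolved. Promoter windows and miRNA sequences came from RefSeq tables, which hold promoters of 20 of the 39 HOX genes and all 8 miRNA genes. For coding genes the promoter window was trimmed to the 250 bases before the start. Overlap meant 1 bp or more. Genome density used the last annotated or called position as the chromosome end. Shares have Wilson intervals, peak counts exact Poisson intervals, and differences of densities an interval from the squared distances to those bounds. The depth was unknown, so intervals cover the counting of intervals only.

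The HOX genes and the other lists were chosen with earlier results of these data known. The naming rule took every HOX gene with either mark, the protein-coding genes of the flanks, the long non-coding RNAs overlapped, list members bound in both lines and up to 4 marked in 1 line, alphabetically, and the strongest peak inside each cluster and flank. Genes of chromosome 8 were counted and not named, and a few other genes are counted and not reported here by name. HOTAIR, EVX1 and some smaller peaks were named after their values were seen. Alternatives changed thresholds, list length, windows, flank width, cluster borders and the overlap that counts as shared. The interval code was tested on simulated data, with 0 mismatches in 4000 queries. The code ran on scipy 1.17.1, pandas 2.3.3, matplotlib 3.10.9 and numpy 2.4.6 under Python 3.11.15.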

Additional observations from a re-analysis of the deposited data

Results flagged for a closer look

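The lines lay on opposite sides in 3 comparisons of inside with flank, each with 1 library per line, and the difference between the lines was not tested. RUNX2 peaks per 100 kb in HOXD were 4.7 more inside than in the flank in KARPAS-45, against −1.0 in PER-117. The KARPAS-45 list is the longer, and at equal list length its value was 1.33. The PER-117 value was 0.0 with a flank of 50 kb, which holds no peak, so the opposite sign ended there. Over all 4 clusters the same difference was 1.6 in KARPAS-45 cells and −0.303 in PER-117 cells, with 0.644 in KARPAS-45 at equal list length and 0.197 in PER-117 with a flank of 50 kb. H3K27ac coverage of HOXC, inside minus flank, was −0.589 percentage points in KARPAS-45 compared with 1.62 in PER-117. The KARPAS-45 value rests on 4 regions with a −log10 q of 1.27 or less.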

How the results depend on the processing

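Of 200 recomputed values, 124 stayed within 1.5 times of the reported value, 12 RUNX2 densities moved further but within their counting error, 60 others moved and 4 changed direction. The 12 include the KARPAS-45 density difference, inside minus flank, which was 1.6 over all clusters and became 0.959 with a −log10 q of 10 or more and 0.644 at equal list length. In HOXD it was 4.7 and became 2.8 and 1.33 under the same settings, in HOXC 1.71 became 0.456 with a flank of 200 kb, and in HOXB −1.0 became −0.00337 with 50 kb. Genes with RUNX2 at an end, 4 in KARPAS-45 cells and 1 in PER-117 cells, became 11 in KARPAS-45 cells and 3 in PER-117 cells with a window of 2.5 kb, and 7 in KARPAS-45 compared with 2 in PER-117 with the whole span. They became 1 in KARPAS-45 cells and 0 in PER-117 cells at the start sites of the 20 genes with a promoter entry, and 0 in PER-117 with a −log10 q of 10 or more. Genes with H3K27ac at an end, 9 in either line, became 2 in KARPAS-45 at equal covered length, and in PER-117 15 with a window of 2.5 kb and 4 at start sites. HOXB has 1 gene with a promoter entry, so its 4 genes acetylated in PER-117 could not be counted at start sites. The H3K27ac coverage difference, inside minus flank, of 4.22 percentage points in KARPAS-45 became 0.771 with a flank of 200 kb. That of 0.762 in PER-117 became 0.32 with a −log10 q of 2 or more, 2.24 with a flank of 50 kb, 2.1 with 200 kb and 2.14 without HOXB13. The RUNX2 density difference of PER-117 changed sign with a flank of 50 kb, to 0.197. HOXB without HOXB13 changed sign in RUNX2 density, to 0.566 in KARPAS-45 cells and 0.0886 in PER-117 cells, and in H3K27ac coverage of PER-117, to 5.56. The causes of these moves were not tested. The 6 RUNX2 peaks shared by the lines in clusters and flanks stayed 6 when 50% of the shorter peak had to overlap. No paired analysis was possible because each line and antibody has 1 library and no test was made.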
